A study of Homo sapiens with 9 samples.

Results

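The 9 genes described here are MYC, NRAS, HRAS, KIT, VEGFA, BCL2, PDGFA, PDGFRB and RB1, a set of growth control genes described as having guanine-rich promoter stretches. They were taken from a gene count table by symbol, each through its Ensembl identifier, and make up 9 of its 24542 rows. The table holds RNA sequencing of A2780 cells, an established human ovarian carcinoma line of wild-type genotype, after 96 h of treatment. The 3 groups are a control with 0.5% DMSO, 0.6 µM cisplatin (written Cispt in the labels) and 5.5 µM Pt-ttpy, a platinum compound that binds G-quadruplexes according to the series title. Each drug was given at its IC80 per the labels, so the molar doses differ. Each group has 3 libraries labelled as biological replicates, and nothing else says that they came from separate cultures, so p-values measure the spread between these libraries. The study asked which genes Pt-ttpy targets.

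A G-quadruplex is a stacked structure that DNA can form where several runs of guanines lie close together on a strand. Such runs are frequent near transcription starts, and the promoters of MYC, KIT, VEGFA and other cancer genes are the classic cases in which small molecules that bind the folded form have been studied for an effect on transcription. The 9 genes act at successive steps of growth signalling. PDGFA and VEGFA are secreted ligands, PDGFRB and KIT are receptor tyrosine kinases, HRAS and NRAS are the GTPases that pass receptor signals on, and MYC is a transcription factor that such signals induce. BCL2 blocks the mitochondrial route to cell death. RB1, the one tumour suppressor of the set, restrains E2F transcription factors and with them entry into S phase.

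Guanine runs are shown first, because they are the feature for which these genes were grouped; the search below found them for 5 of the 9. RefSeq promoter windows on GRCh38.p14, each of 300 bases from 250 before to 50 after an annotated start, were found for 7 of the 9 genes, and none for MYC and VEGFA. They were searched on both strands for 4 runs of at least 3 G, separated by loops of 1 to 7 bases of any kind. NRAS, HRAS, KIT, PDGFA and PDGFRB held a match, and BCL2 and RB1 did not. Of 27305 genes with a window, 27.9% held the same pattern, so it is common among promoters. One match per gene is printed 5′ to 3′ for the 5 genes, with the G runs of the match in capitals. NRAS and HRAS lie largely in annotated 5′ exons and are shown with short flanks.
NRAS: ccgtgtGGGaGGGGcGGGtctGGGtgcggc
HRAS: ctcGGGttgcGGGcgcaGGGcacGGGcgg
KIT: cagaGGGaGGGcgctGGGaggaGGGGctgc
PDGFA: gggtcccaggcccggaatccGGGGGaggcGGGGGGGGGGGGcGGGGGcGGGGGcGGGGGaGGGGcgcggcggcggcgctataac
PDGFRB: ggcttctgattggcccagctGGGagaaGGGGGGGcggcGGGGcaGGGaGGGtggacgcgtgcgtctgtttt
The NRAS stretch lies at chr1:114716857-114716886 on the minus strand, which is the strand of the gene. The HRAS stretch lies at chr11:535529-535557 on the plus strand, opposite to the gene, 22 to 44 bases after the RefSeq start. The KIT stretch lies at chr4:54657881-54657910 on the plus strand, with its match 72 to 51 bases before the start. The PDGFA stretch lies at chr7:519872-519955 on the minus strand and has 6 G runs. The PDGFRB stretch lies at chr5:150155927-150155997 on the plus strand, opposite to the gene. KIT had 2 matches in its window and PDGFA 4 matches in 3 of its 4 windows. The BCL2 window held a match only when loops of up to 12 bases were allowed. Its start lies 359 bases into the annotated gene, and that of the HRAS window 1711 bases. Neither window reaches upstream of its gene. The RB1 window starts at an internal start 172724 bases into the gene, so it does not cover the main promoter. A match is a run of letters and does not show that a structure forms in these cells.

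Library totals ranged from 31264474 to 40826035 counts. Values are given as counts-per-million (CPM), scaled between libraries by the trimmed mean of M values. DMSO replicate 2 and cisplatin replicate 2 stood apart from the other 7 libraries. The deviation of a gene from its mean over the 9 libraries rose with the GC content of its transcripts in these 2, with a Spearman coefficient over 10644 genes of 0.64 and 0.45, and fell with it in the other 7, between -0.44 and -0.23. Transcript GC content of the 9 genes runs from 37.3% in RB1 and 38.4% in NRAS to 57.6% in PDGFRB and 65.8% in HRAS, so results that rest on these libraries are also given without them. The labelled cell type was checked against markers. The 11 epithelial and ovarian carcinoma markers summed to only 2.15 to 3.29 CPM in DMSO, 3.23 to 4.60 CPM in Pt-ttpy and 6.37 to 12.9 CPM in cisplatin, so the defining epithelial transcripts were nearly absent. In the test described below, 4 of them were tested. With cisplatin 3 rose (KRT8, EPCAM and CLDN4), from low levels, where 10.7% of all genes were called higher. With Pt-ttpy 0 were called, where 12% of all genes were. KRT8 and EPCAM had 6 and 9 counts over the DMSO libraries, so they entered the test through the drug libraries. The count of 3 is thus not read as a result about these markers. CLDN4 alone averaged 2.08 CPM in DMSO and 6.96 CPM in cisplatin. Fewer cells of a type and less RNA per cell cannot be told apart in bulk libraries.

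Pt-ttpy was followed by 2 changes among the 9 genes at 96 h: PDGFRB rose and HRAS fell. Cisplatin was followed by 1, a rise of PDGFRB, and none of the 9 differed between the 2 drugs past the threshold. MYC, the best-known promoter quadruplex gene, was not called in any comparison. KIT was too low to be tested, which left 8 genes. All calls are from edgeR's quasi-likelihood test with p-values adjusted by Benjamini and Hochberg's method over 15558 genes and a threshold of 0.05.

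**Figure D1:**
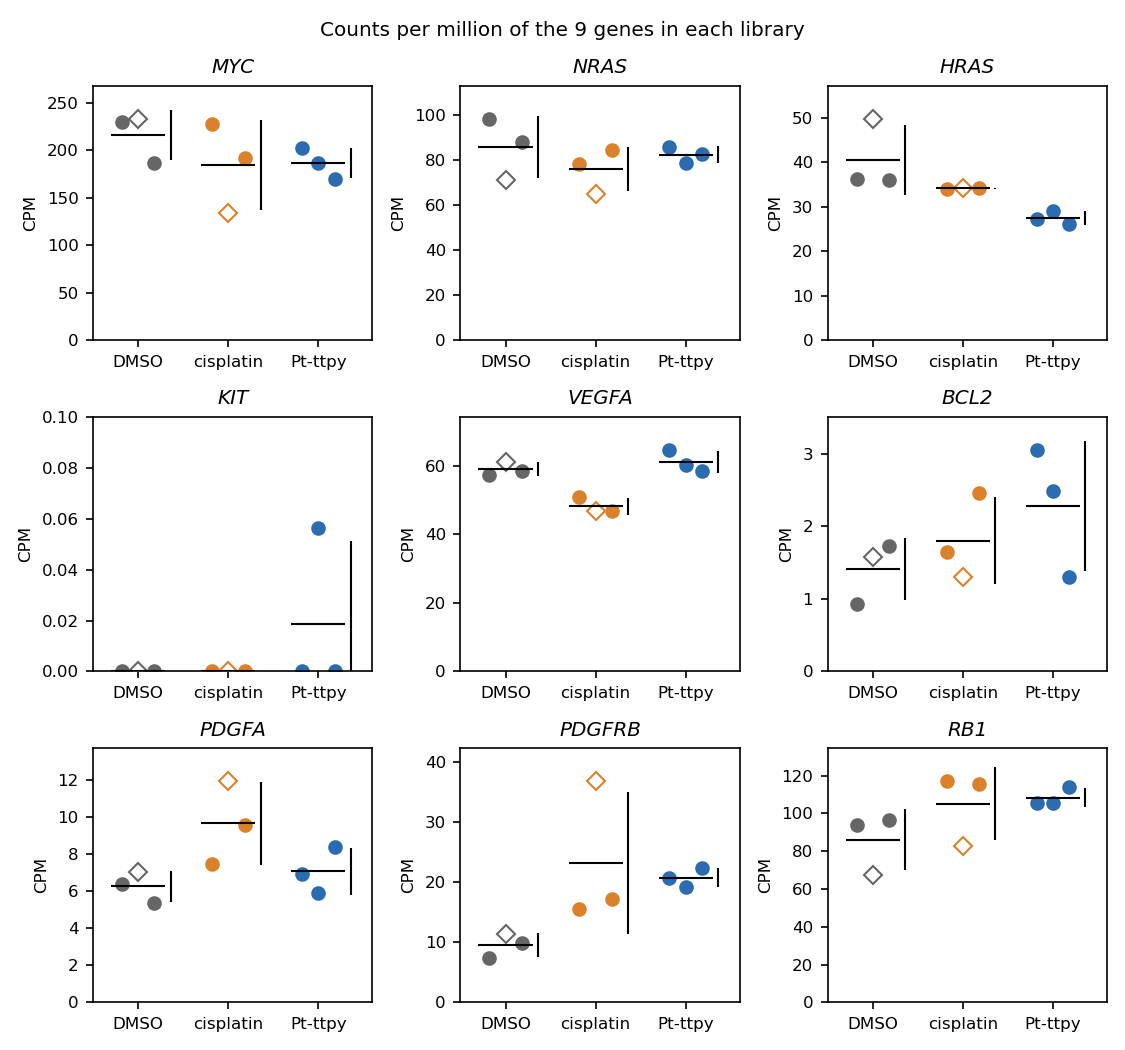
Normalised expression (CPM, linear axis from 0) of the 9 genes in the 3 libraries of each group. Points are libraries, horizontal bars group means and vertical bars 1 SD; open diamonds are DMSO replicate 2 and cisplatin replicate 2. HRAS is lowest in Pt-ttpy, PDGFRB is higher in both drug groups than in DMSO, and KIT has counts in 1 library only.

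Over all genes the same test gave the background for these counts. Of the genes tested, 12% were called between Pt-ttpy and DMSO, 5.59% higher and 6.45% lower, against 2 of the 8. Between cisplatin and DMSO 20.5% were called, 10.7% higher and 9.78% lower, against 1 of the 8. With 8 genes tested, neither count is read as a result about the set. Between the drugs 0.514% were called, against 0 of the 8; limma-voom and DESeq2 also called 0, and HRAS and VEGFA had an unadjusted p under 0.05. The groups did not overlap for 3 of the 8 genes between Pt-ttpy and DMSO (HRAS, PDGFRB and RB1), where 40.9% of all genes did not overlap. For cisplatin against DMSO this held for 4 of the 8 (HRAS, VEGFA, PDGFA and PDGFRB), where the share over all genes was 38%, and between the drugs for 2 of the 8 (HRAS and VEGFA), where it was 20.6%. The median log2 change of the 8 was 0.11 with Pt-ttpy, 0.058 with cisplatin and 0.028 between the drugs, beside 0.031, 0.013 and 0.0042 over all genes tested. The comparisons share samples, so they are not independent.

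**Figure D2:**
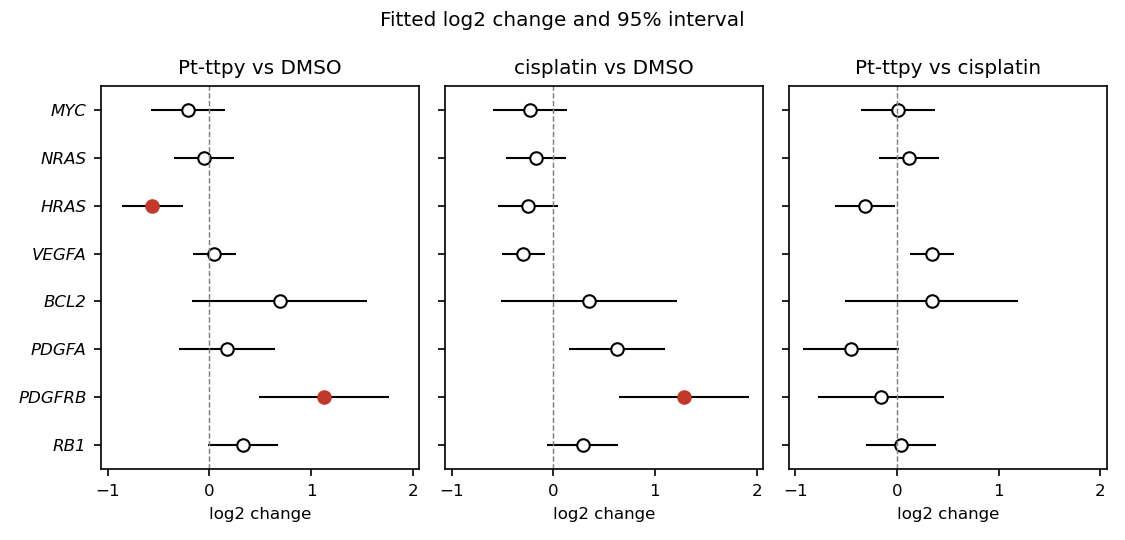
Fitted log2 change (x axis) of the 8 tested genes in the 3 comparisons, with 95% intervals. Filled red points passed the adjusted p threshold of 0.05 (HRAS and PDGFRB with Pt-ttpy, PDGFRB with cisplatin) and open points did not.

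The ligand PDGFA (ENSG00000197461, chromosome 7) binds PDGF receptors as a dimer. Its level was 6.39, 7.02 and 5.37 CPM in DMSO replicates 1 to 3, 7.47, 11.9 and 9.55 CPM in cisplatin and 6.92, 5.86 and 8.39 CPM in Pt-ttpy. All 3 cisplatin libraries lay above all DMSO libraries, and the Pt-ttpy libraries overlapped both groups. PDGFA was not called with cisplatin, with a log2 change of 0.63 (SE 0.22, edgeR adjusted p = 0.0597), and it crossed the threshold in 5 of 21 alternatives, among them DESeq2's Wald test (adjusted p = 0.0304). With Pt-ttpy the log2 change was 0.17, with a 95% interval of -0.30 to 0.65 (adjusted p = 0.635).

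PDGFRB (ENSG00000113721, chr5:150113837-150155872, minus strand) encodes the receptor that binds PDGF-BB with high affinity and marks pericytes and fibroblasts. It had 7.32, 11.3 and 9.86 CPM in DMSO, 15.5, 36.7 and 17.2 CPM in cisplatin and 20.7, 19.2 and 22.3 CPM in Pt-ttpy. Every drug-treated library was above every control library, and cisplatin replicate 2 was the highest of the 9. The group means were 9.50 ± 2.02 (SD, n = 3) in DMSO, 23.1 ± 11.8 in cisplatin and 20.7 ± 1.57 in Pt-ttpy. PDGFRB rose 2.18-fold with Pt-ttpy (log2 1.13, SE 0.29, edgeR adjusted p = 0.03) and 2.44-fold with cisplatin (log2 1.29, SE 0.29, edgeR adjusted p = 0.0119). The drugs did not differ past the threshold, with a log2 difference of -0.16 and a 95% interval from -0.78 to 0.46 (adjusted p = 0.909). The Pt-ttpy call was lost when any 1 DMSO library or any 1 Pt-ttpy library was left out, with adjusted p from 0.0501 to 0.0948. Over all genes 494 to 722 were called higher without a DMSO library and 143 to 212 without a Pt-ttpy library, against 870 with all. The cisplatin call held in each such fit, but its log2 value was 0.78 without cisplatin replicate 2. Without both libraries that stood apart, log2 was 1.27 with Pt-ttpy (adjusted p = 2.51e-06) and 0.93 with cisplatin (adjusted p = 0.000141).

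PDGFRB did not rise alone among the genes that mark fibroblasts and pericytes. Over all genes, 5.59% were called higher with Pt-ttpy and 10.7% with cisplatin. Of 9 other fibroblast markers tested, 4 rose and 0 fell with each drug. The summed level of the list was 1091 to 1202 CPM in DMSO, 1740 to 1965 CPM in cisplatin and 1810 to 1891 CPM in Pt-ttpy. COL3A1 at 482 CPM and DCN at 324 CPM made up most of the DMSO sum, and both were among the 4 that rose. The sum thus mainly follows these genes and not the whole list. COL3A1, a fibrillar collagen, rose by 0.77 on the log2 scale with Pt-ttpy (edgeR adjusted p = 0.0101) and 0.93 with cisplatin (adjusted p = 0.00187). The proteoglycan gene LUM rose by 1.22 with Pt-ttpy (adjusted p = 0.00964) and 0.91 with cisplatin (adjusted p = 0.0142), while FAP was at 0 in all libraries. PDGFRA, described below, is another of the 4. The other 5 were not called, among them THY1 at 109 CPM in DMSO and 91.2 CPM in Pt-ttpy, COL1A1 at 11.1 and 9.94 CPM and FN1 at 1.33 and 1.09 CPM, named after their values were seen. Of 7 pericyte and smooth muscle markers tested, 2 rose with Pt-ttpy and 3 with cisplatin, and 0 fell with either. Their sum was 139.6 to 166.8 CPM in DMSO, 279 to 472.6 CPM in cisplatin and 243.3 to 259.7 CPM in Pt-ttpy, and ABCC9 was at 0. NOTCH3, a receptor typical of mural cells, rose by 0.93 with Pt-ttpy (adjusted p = 0.0123) and 1.39 with cisplatin (adjusted p = 0.000734). The largest parts of the DMSO sum were NOTCH3 at 80.6 CPM and CSPG4 at 63.1 CPM. CSPG4 was called with cisplatin only (log2 0.79, adjusted p = 0.0121), but with both drugs without the 2 libraries that stood apart. ACTA2, at 1.95 CPM in DMSO, rose by 1.69 with Pt-ttpy and 3.64 with cisplatin. It was lower with Pt-ttpy than with cisplatin (log2 -1.96, adjusted p = 0.000637). RGS5, MCAM, MYH11 and KCNJ8 were not called with either drug. Without Pt-ttpy replicate 1, 2 or 3 the pericyte count with Pt-ttpy was 1, where 143 to 212 of 15908 to 15955 genes were called higher. Without cisplatin replicate 1 or 3 the fibroblast count with cisplatin was 2. In these fits 1515 of 15886 and 1495 of 15917 genes were called higher with cisplatin. The part of these markers in the PDGFRB result was not tested.

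Among the other ligands and receptors of the PDGF and KIT families, 1 of 7 tested genes rose with Pt-ttpy, 2 rose with cisplatin and 0 fell with either. The shares of all genes called higher were 5.59% and 10.7%. The sister receptor PDGFRA rose from 69.8 ± 6.74 CPM (SD, n = 3) in DMSO to 115 ± 5.55 in Pt-ttpy, a log2 change of 0.72 (edgeR adjusted p = 0.00825). In cisplatin it was at 98.2 ± 13.3 CPM, a rise of 0.49 (adjusted p = 0.0165). Per kilobase of the longest coding transcript, the PDGFRA level in DMSO was 10.6 CPM and that of PDGFRB 1.66 CPM, so the alpha receptor was the more abundant. CSF1, the ligand of a related receptor, rose by 2.05 with cisplatin (adjusted p = 0.000349) and was lower by 1.29 with Pt-ttpy than with cisplatin (log2 -1.29, adjusted p = 0.0301). The count with Pt-ttpy was 3 without cisplatin replicate 2, where 1411 of 15752 genes were called higher. It was 2 without DMSO replicate 2, where 673 of 15898 genes were called higher. The count with cisplatin was 1 without cisplatin replicate 1, where 1515 of 15886 genes were called higher. PDGFB was below 1 CPM on average in each group, with a log2 change of 0.47 with Pt-ttpy (adjusted p = 0.646).

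KIT (ENSG00000157404, chr4:54657918-54740715) is the receptor for stem cell factor and is typical of mast cells, melanocytes and blood progenitors. It had 0 counts in 8 libraries and 2 counts in Pt-ttpy replicate 2. The 3 counts that an observed 0 allows correspond to 0.0711 to 0.0966 CPM in these libraries, for counting error only. KIT transcripts were thus not detectable at this depth in 8 of 9 libraries, although the gene carries the pattern printed above. The mast cell genes TPSAB1, TPSB2, CPA3 and MS4A2 were at 0 in all libraries too. Its ligand gene KITLG averaged 1.34 CPM in DMSO and 0.80 CPM in Pt-ttpy, a log2 change of -0.74 that did not pass the test (adjusted p = 0.355).

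VEGFA (ENSG00000112715, chromosome 6) encodes the main growth factor of blood vessels. It was even within groups, at 57.4, 61.2 and 58.5 CPM in DMSO, 51.0, 46.8 and 46.8 CPM in cisplatin and 64.6, 60.2 and 58.6 CPM in Pt-ttpy. The cisplatin libraries lay below all others, and the DMSO and Pt-ttpy libraries overlapped. Neither separation was called: log2 was -0.29 for cisplatin against DMSO (SE 0.10, edgeR adjusted p = 0.0533) and 0.34 for Pt-ttpy against cisplatin (SE 0.10, adjusted p = 0.253). Without DMSO replicate 2 and cisplatin replicate 2 both were called, at -0.24 (adjusted p = 0.0213) and 0.32 (adjusted p = 0.00928). For Pt-ttpy against DMSO the log2 change was 0.049, with a 95% interval of -0.16 to 0.26. The antisense gene AL136131.3 shares 188 exon bases with VEGFA, and since strand handling in the counting is not given, its reads cannot be told apart there. Of 6 other VEGF ligands and receptors tested, edgeR called 0 with either drug, where 12% and 20.5% of all genes were called. Without DMSO replicate 2 and cisplatin replicate 2, VEGFB was called higher with Pt-ttpy (log2 0.27, edgeR adjusted p = 0.0116). FLT4 was then higher with Pt-ttpy than with cisplatin (log2 0.43, adjusted p = 0.0123), and none was called with cisplatin. In that fit 5189 of 15646 genes were called with Pt-ttpy and 813 between the drugs. The receptor gene KDR was too low to be tested, with 8 counts over the DMSO libraries and 0 elsewhere.

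HRAS (ENSG00000174775, chr11:532242-537287, minus strand) encodes a membrane GTPase that activates RAF and PI3 kinases. It had 36.2, 49.7 and 36 CPM in DMSO, 34.0, 34.2 and 34.3 CPM in cisplatin and 27.3, 29.1 and 26.1 CPM in Pt-ttpy. The 3 groups did not overlap, with Pt-ttpy lowest, and DMSO replicate 2 was well above the other libraries. HRAS fell with Pt-ttpy to 0.677 of the DMSO level, a log2 change of -0.56 (SE 0.14, edgeR adjusted p = 0.0243). With cisplatin log2 was -0.25 (95% interval -0.55 to 0.049, adjusted p = 0.217), and between Pt-ttpy and cisplatin it was -0.32 (95% interval -0.61 to -0.016, adjusted p = 0.587). The call with Pt-ttpy was lost when any 1 Pt-ttpy library was left out, with adjusted p from 0.0856 to 0.0984. Most calls over all genes were lost in these fits too: 42 to 87 genes were called lower, against 1004 with all libraries. Without DMSO replicate 2 and cisplatin replicate 2 the log2 change was -0.39 (adjusted p = 0.00137), the difference between the drugs was then called at -0.32 (adjusted p = 0.0346), and the value with cisplatin was -0.074 (adjusted p = 0.59). Without DMSO replicate 2 alone the value with cisplatin was -0.075. After GC correction HRAS was called with both drugs, at -0.50 with Pt-ttpy (adjusted p = 0.00479) and -0.32 with cisplatin (adjusted p = 0.027), and the difference between the drugs was -0.19 (adjusted p = 0.53).

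NRAS (ENSG00000213281, chr1:114704469-114716894, minus strand) encodes a close relative with the same effectors. Its level was 98.1, 70.9 and 87.9 CPM in DMSO, 78.2, 65.1 and 84.5 CPM in cisplatin and 85.8, 78.5 and 82.8 CPM in Pt-ttpy. The groups overlapped throughout, and the lowest libraries in DMSO and cisplatin were again the 2 that stood apart. The log2 change with Pt-ttpy was -0.056, with a 95% interval from -0.35 to 0.24 (adjusted p = 0.82), and its sign turned with the scaling, being 0.012 with upper-quartile factors and 0.0057 with library totals. Without DMSO replicate 2 and cisplatin replicate 2 it was -0.17 (adjusted p = 0.056).

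Genes around the RAS proteins were called in both directions. Over all genes, 5.59% were called higher and 6.45% lower with Pt-ttpy, and 10.7% and 9.78% with cisplatin. The list counts below are not read as results about the lists. Of 21 exchange factors, inhibitors and relatives tested, 1 rose and 1 fell with Pt-ttpy, and 3 rose and 0 fell with cisplatin. These numbers were 3 and 4 with Pt-ttpy, and 4 and 3 with cisplatin, without DMSO replicate 2 and cisplatin replicate 2. In that fit 5189 and 4728 of 15646 genes were called. RASA3, which switches RAS off, rose by 0.72 with Pt-ttpy (edgeR adjusted p = 0.0209) and 0.86 with cisplatin (adjusted p = 0.00637). The adaptor SHC1 fell with Pt-ttpy (log2 -0.45, adjusted p = 0.0331). Of 18 effector genes, 1 rose with Pt-ttpy, while 3 rose and 1 fell with cisplatin. The scaffold gene KSR1 was among those that rose with cisplatin (log2 1.01, adjusted p = 0.00333). Of 18 ERK feedback and output genes, 2 rose and 2 fell with Pt-ttpy, and 2 rose and 5 fell with cisplatin. FOSL1, an AP-1 subunit, rose by 2.29 with cisplatin (adjusted p = 1.61e-05) and by 0.61 with Pt-ttpy (adjusted p = 0.0355), and it was lower with Pt-ttpy than with cisplatin (log2 -1.69, adjusted p = 0.000605). Without any 1 Pt-ttpy library 0 genes of these 3 lists were called with Pt-ttpy. In these fits 185 to 299 of 15908 to 15955 genes were called. The 5 falls of ERK output genes with cisplatin became 0 without cisplatin replicate 2, where 915 of 15752 genes were called lower. They became 1 to 4 without any other library, where 976 to 1399 of 15886 to 15955 genes were called lower.

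MYC (ENSG00000136997, chromosome 8) encodes a transcription factor that drives ribosome production and cell growth. It had 229.5, 233 and 186 CPM in DMSO, 228, 135 and 192 CPM in cisplatin and 202, 187 and 170.3 CPM in Pt-ttpy. The groups overlapped in each comparison, and the lowest library was cisplatin replicate 2. Its log2 change with Pt-ttpy was -0.21 (SE 0.17), with a 95% interval from -0.58 to 0.15 (edgeR adjusted p = 0.423). With cisplatin log2 was -0.23 (adjusted p = 0.361), but 0.019 without DMSO replicate 2 and cisplatin replicate 2. Between the drugs it was 0.013, with a 95% interval from -0.35 to 0.38 and a sign that turned to -0.0027 with library totals and to -0.17 without those 2 libraries.

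Some known MYC target genes fell with each drug and none rose. Of 25 MYC target genes, all tested, 9 fell and 16 were not called with Pt-ttpy, where 6.45% of all genes were called lower. With cisplatin 14 fell and 11 were not called, where 9.78% of all genes were called lower. Their median log2 change was -0.26 with Pt-ttpy and -0.45 with cisplatin, beside 0.031 and 0.013 over all genes tested. ODC1, the first enzyme of polyamine synthesis, fell from 300 ± 23.1 CPM (SD, n = 3) in DMSO to 203 CPM in Pt-ttpy (log2 -0.56, edgeR adjusted p = 0.00774) and 211 CPM in cisplatin (log2 -0.51, adjusted p = 0.00505). NOP16, a ribosome assembly factor, fell by 0.84 with Pt-ttpy (adjusted p = 0.0112) and 0.85 with cisplatin (adjusted p = 0.0051). SRM, which makes spermidine, fell by 0.64 with Pt-ttpy (adjusted p = 0.0211), and CDC25A, a phosphatase that activates cyclin-dependent kinases, fell by 0.83 with cisplatin (adjusted p = 0.00731). LDHA, which makes lactate, was the 1 target called between the drugs, higher with Pt-ttpy than with cisplatin by 0.77 (adjusted p = 0.0476). The count with cisplatin was 6 of 25 when the fit used only the 6 libraries compared. In that fit 395 of 15173 genes were called lower. The counts with Pt-ttpy and cisplatin were 17 (with 1 gene higher) and 20 of 25 without the 2 libraries that stood apart. There 17.4% and 16.4% of all genes were called lower. With Pt-ttpy the count was 1 without any 1 Pt-ttpy library, where 42 to 87 of 15908 to 15955 genes were called lower. It was 4 without DMSO replicate 2, where 619 of 15898 genes were called lower. Without cisplatin replicate 2 it was 14, where 1593 of 15752 genes were called lower. The number of target genes called thus moved with the number over all genes. The median log2 change of the targets stayed between -0.31 and -0.24 in these and the other fits that left out 1 library. No target was called between the drugs in 7 of the 9 fits that left out 1 library. These targets respond to other regulators as well, and whether they followed MYC was not tested.

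Of 14 MYC partners and antagonists tested, 1 rose and 1 fell with Pt-ttpy, and 3 rose and 1 fell with cisplatin. The shares of all genes called were 12% with Pt-ttpy and 20.5% with cisplatin. MXI1, which competes with MYC for its partner MAX, rose by 1.12 with Pt-ttpy (edgeR adjusted p = 0.0101) and 0.98 with cisplatin (adjusted p = 0.00801). MLX, a MAX-like protein, fell by 0.49 with Pt-ttpy (adjusted p = 0.0198) and 0.67 with cisplatin (adjusted p = 0.00309). Without any 1 Pt-ttpy library the fall of MLX was not called, where 42 to 87 of all genes were called lower with Pt-ttpy. MAX itself was not called, with a log2 change of -0.23 with Pt-ttpy (adjusted p = 0.169).

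BCL2 (ENSG00000171791, chromosome 18) was low in every library, at 0.929, 1.58 and 1.72 CPM in DMSO, 1.64, 1.30 and 2.46 CPM in cisplatin and 3.05, 2.48 and 1.30 CPM in Pt-ttpy. The groups overlapped and the libraries within each group varied widely. Its log2 change with Pt-ttpy was 0.69, with a wide 95% interval from -0.17 to 1.55 (edgeR adjusted p = 0.269), and with cisplatin 0.35 (adjusted p = 0.567). Single libraries moved these values: without Pt-ttpy replicate 1 that with Pt-ttpy was 0.42, and that with cisplatin was 0.057 without cisplatin replicate 3 and 0.12 without DMSO replicate 1. The latter was 0.63 without both DMSO replicate 2 and cisplatin replicate 2. The other members of its family moved in both directions: of 17 tested, 4 rose and 3 fell with Pt-ttpy, and 5 rose and 2 fell with cisplatin. Over all genes, 5.59% were called higher and 6.45% lower with Pt-ttpy, and 10.7% and 9.78% with cisplatin. With Pt-ttpy the mitophagy receptors BNIP3L (log2 1.60, adjusted p = 0.0045) and BNIP3 (log2 0.91, adjusted p = 0.00835) rose, and the pore-forming BAK1 fell (log2 -0.65, adjusted p = 0.0191). With cisplatin the p53 targets BBC3 (log2 1.44, adjusted p = 0.000734) and BAX (log2 0.88, adjusted p = 0.00142) rose. Without DMSO replicate 2 and cisplatin replicate 2, BBC3 was also called higher with Pt-ttpy (log2 0.66, adjusted p = 0.00151). BAX was not (log2 0.056, adjusted p = 0.618). BAX was lower with Pt-ttpy than with cisplatin (log2 -0.94, adjusted p = 0.00707). Without any 1 Pt-ttpy library, 1 or 2 family genes rose and 0 fell with Pt-ttpy. In these fits 143 to 212 of 15908 to 15955 genes were called higher and 42 to 87 lower. Without cisplatin replicate 2, 5 family genes rose and 5 fell with Pt-ttpy, where 1411 of 15752 genes were called higher and 1593 lower. BCL2L1, the more abundant survival gene at 20.6 CPM per kilobase in DMSO against 0.189 for BCL2, was not called with either drug (log2 -0.37, adjusted p = 0.0602 with Pt-ttpy). It was called with Pt-ttpy without DMSO replicate 2 and cisplatin replicate 2 (log2 -0.27, adjusted p = 0.0145).

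RB1 (ENSG00000139687, chromosome 13) had 94.1, 67.4 and 96.6 CPM in DMSO, 117, 83.0 and 116 CPM in cisplatin and 105, 106 and 114 CPM in Pt-ttpy. All Pt-ttpy libraries lay above the DMSO libraries, and the lowest library of DMSO and of cisplatin was replicate 2. It was not called, with a log2 change of 0.33 with Pt-ttpy (95% interval -0.015 to 0.68, edgeR adjusted p = 0.187) and 0.29 with cisplatin (adjusted p = 0.216). Without DMSO replicate 2 and cisplatin replicate 2 it was called with both drugs, at 0.19 (adjusted p = 0.0159) and 0.29 (adjusted p = 0.00155). Of 26 genes of the RB pathway tested, 3 rose and 2 fell with Pt-ttpy, and 4 rose and 7 fell with cisplatin. Over all genes, 5.59% were called higher and 6.45% lower with Pt-ttpy, and 10.7% and 9.78% with cisplatin. CDKN1A, the p21 inhibitor of cyclin-dependent kinases that keeps RB1 active, rose 2.07-fold with Pt-ttpy (adjusted p = 0.00327) and 8.88-fold with cisplatin (adjusted p = 1.2e-06), and was lower with Pt-ttpy than with cisplatin (log2 -2.10, adjusted p = 7.57e-05). E2F4, a repressive E2F, fell by 0.52 with Pt-ttpy (adjusted p = 0.0164) and 0.53 with cisplatin (adjusted p = 0.00876), and CCNE1, cyclin E1, fell by 0.46 with Pt-ttpy (adjusted p = 0.0312). Without any 1 Pt-ttpy library, 2 genes of the pathway rose and 0 fell with Pt-ttpy. In these fits 143 to 212 of 15908 to 15955 genes were called higher and 42 to 87 lower.

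**Figure D3:**
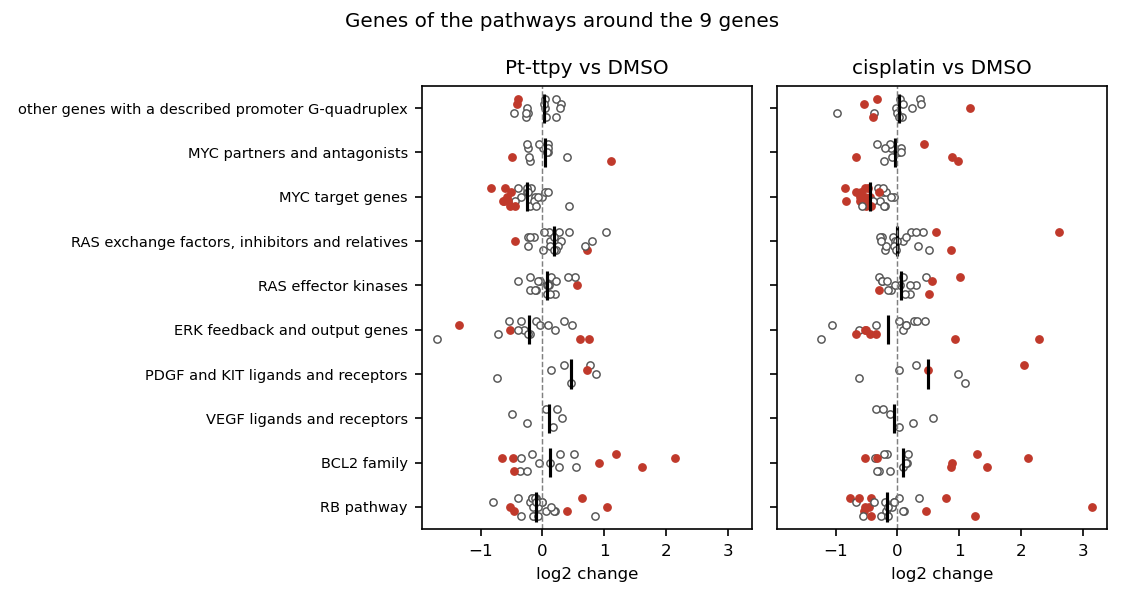
Fitted log2 change (x axis) of each tested gene in 10 gene lists around the 9 genes, with Pt-ttpy and with cisplatin against DMSO. Points are genes, filled red where the adjusted p was under 0.05, and the vertical bar is the list's median, which for MYC target genes is -0.26 and -0.45.

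Other genes known for a promoter G-quadruplex were looked at in the same way. Of 15 tested, 0 rose and 2 fell with Pt-ttpy, and 1 rose and 3 fell with cisplatin. The shares of all genes called were 12% with Pt-ttpy and 20.5% with cisplatin. The 2 that fell with Pt-ttpy were the mitotic kinase AURKA (log2 -0.41, edgeR adjusted p = 0.0201) and the chaperone HSP90AB1 (log2 -0.39, adjusted p = 0.0208), and both also fell with cisplatin, by 0.54 and 0.33. MDM2, the p53 ubiquitin ligase, rose by 1.17 with cisplatin (adjusted p = 0.000641) and was lower with Pt-ttpy than with cisplatin (log2 -0.88, adjusted p = 0.0241). Neither the fall of AURKA nor that of HSP90AB1 was called when any 1 Pt-ttpy library was left out. In these fits 42 to 87 of all genes were called lower with Pt-ttpy. Without DMSO replicate 2 and cisplatin replicate 2 both were called, at -0.36 for AURKA (adjusted p = 5.26e-05) and -0.32 for HSP90AB1 (adjusted p = 4.19e-05). In that fit PARP1 (log2 -0.21, adjusted p = 0.00292) and STAT3 (log2 -0.17, adjusted p = 0.0336) fell too. MDM2 rose (log2 0.16, adjusted p = 0.0334), and 5189 of 15646 genes were called. STAT3 was then also lower with Pt-ttpy than with cisplatin (log2 -0.23, adjusted p = 0.0309). TERT, the telomerase catalytic subunit, had 20.6 ± 2.82 CPM in DMSO and 17.1 ± 1.89 in Pt-ttpy (log2 -0.27, adjusted p = 0.241).

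The levels of the 9 genes spanned a wide range. Per kilobase of the longest coding transcript, MYC was highest in DMSO at 91.4 CPM, followed by HRAS at 32.9 CPM. NRAS at 19.2, RB1 at 18.0 and VEGFA at 16.7 CPM overlapped, followed by PDGFA at 2.71, PDGFRB at 1.66 and BCL2 at 0.189 CPM. In Pt-ttpy RB1 at 22.6 CPM overlapped HRAS at 22.3 CPM and lay above NRAS at 18.5 CPM, and PDGFRB at 3.63 CPM overlapped PDGFA at 3.06 CPM. The places of VEGFA and HRAS depend on the length used. Per kilobase of all exons VEGFA had 4.09 CPM in DMSO. On that scale HRAS at 21.9 CPM overlapped NRAS in DMSO, and in Pt-ttpy HRAS at 14.8 CPM lay below NRAS at 18.5 and RB1 at 16.8 CPM.

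The genes whose pattern over the 9 libraries was most like that of HRAS, by Pearson correlation of log2(CPM + 1) among 10627 genes, were TPM2 (r = 0.993), FLCN (r = 0.975) and DIS3L2 (r = 0.975). TPM2, a tropomyosin, had 281 ± 47.6 CPM in DMSO, 239 ± 6.23 in cisplatin and 203 ± 8.0 in Pt-ttpy (SD, n = 3). Those most like PDGFRB were ERBB3 (r = 0.988), ACSF2 (r = 0.987) and SLC25A42 (r = 0.983). ERBB3, a receptor of the EGFR family, had 44.5 ± 5.25 CPM in DMSO, 76.0 ± 19.97 in cisplatin and 71.0 ± 3.87 in Pt-ttpy. These points share their libraries, including the 2 that stood apart, so the coefficients only describe these 9.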

How the data were processed

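RNA of 9 A2780 libraries, 3 per group, was extracted with an RNeasy kit and made into libraries with a SMARTER mRNA kit, per the labels' protocols. The deposited values are raw counts per gene, whole numbers with no normalization. The submitters' processing notes name the build GRCh38, while aligner, counter and use of strand were not given in the sources used here. The table has 24542 rows: 19974 are Ensembl identifiers, all found in GENCODE release 29, which gave positions, and 4568 are unnamed models of the authors. Symbols came from a separate list of gene names, which named 19883 rows.

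Counts were fitted over all 9 libraries with edgeR 4.0.16 in R 4.3.3 (filterByExpr with a minimum count of 10, TMM scaling, robust quasi-likelihood test, Benjamini-Hochberg adjustment over 15558 genes, threshold 0.05). The design has a term for group only. The script was tested on simulated data. Alternatives were DESeq2 1.42.0, limma-voom (limma 3.58.1), other scalings and filters, libraries left out, a replicate block and a GC correction; the last was added after seeing the data. Levels per kilobase use the longest coding transcript. Promoter windows are RefSeq's. Same-numbered DMSO and cisplatin libraries deviated together, with correlations of 0.32 to 0.50. The highest, 0.50, was that of the 2 libraries that stood apart. Differently numbered libraries came near the others, with 0.28 for DMSO 1 with cisplatin 3 and 0.27 for DMSO 3 with cisplatin 1. The labels give only the number, so pairing of the samples is not established. The highest same-number correlation with a Pt-ttpy library was 0.15. No 2 libraries of the same group agreed within counting noise. The 9 genes and all gene lists were chosen with earlier results of these data known. The text names the 9 genes, up to 4 called genes per list and comparison by smallest adjusted p, 10 set genes, and the 3 genes most like each called one; some genes these rules pick are not reported here. Of the marker lists, the endothelial genes summed to 9.76 to 12.3 CPM in DMSO and 6.19 to 9.51 CPM in Pt-ttpy, and the mast and blood genes to 3.47 to 5.73 CPM over all libraries.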

Additional observations from a re-analysis of the deposited data

How the results depend on the processing

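Between Pt-ttpy and DMSO, 1874 genes were called in the reported fit, 2853 by DESeq2's Wald test, 5189 without DMSO replicate 2 and cisplatin replicate 2, 3575 after GC correction, and 185 to 3004 with 1 library left out. Between cisplatin and DMSO these were 3190 as reported, 1313 from the 6 libraries compared, 5054 after GC correction and 2012 to 3100 with 1 library left out. Between the drugs they were 80 as reported, 253 by DESeq2's Wald test, 813 without the 2 libraries, 215 after GC correction and 18 to 155 with 1 library left out. For Pt-ttpy against DMSO the lowest numbers, 185 to 299, were those without 1 Pt-ttpy library. The causes were not tested. Upper-quartile scaling moved the share of called genes that were higher from 46.4% to 61.2% with Pt-ttpy and from 52.3% to 68.0% with cisplatin; library totals gave 56.5% and 67.9%.

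Of the 9 genes, the number called with Pt-ttpy was 2 as reported, 3 without the 2 libraries and 0 to 2 with 1 library left out. With cisplatin it was 1 as reported, 2 with upper-quartile factors or library totals, 3 by DESeq2's Wald test and without the 2 libraries, 5 after GC correction and 1 to 2 with 1 library left out. Between the drugs it was 0, but 2 without the 2 libraries and 1 after GC correction. The number called over all genes moved too. Without the 2 libraries 5189 of 15646 genes were called with Pt-ttpy, 4728 with cisplatin and 813 between the drugs. Of 15558 genes, GC correction called 5054 with cisplatin and 215 between the drugs. With cisplatin DESeq2's Wald test called 3943, upper-quartile factors 2853 and library totals 2938. None of these member counts is read as a result about the set. Directions reversed only in uncalled values. Without the 2 libraries, log2 became 0.019 for MYC with cisplatin, and between the drugs -0.17 for MYC, 0.34 for PDGFRB and -0.10 for RB1. After GC correction it was -0.014 for NRAS and -0.090 for RB1 between the drugs. With library totals it was -0.0027 for MYC between the drugs and 0.0057 for NRAS with Pt-ttpy, and 0.012 for the latter with upper-quartile factors. With 1 library left out, values between the drugs ran from -0.17 to 0.19 for MYC, -0.38 to 0.35 for PDGFRB and -0.10 to 0.13 for RB1, and with Pt-ttpy from -0.17 to 0.052 for NRAS. The share of genes with a promoter match was 40.6% with loops of up to 12 bases, against 27.9%.

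With the replicate number as a block, 3712 genes were called between cisplatin and DMSO, and no call among the 8 genes changed. Here 6 of 6 libraries correlated best with their own number, but the samples share only a number in every comparison. For Pt-ttpy the block gave 2539 genes against DMSO and 140 against cisplatin, and 2 of 6 and 5 of 6 libraries correlated best with their own number.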

Other observations

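Genes with the guanine-run pattern in a RefSeq promoter window were set beside those without it over all tested genes that had a window. Between Pt-ttpy and DMSO, 12.5% of 4483 genes with the pattern were called and 13.6% of 6217 without it, and the median log2 changes were -0.0074 and -0.012. Between cisplatin and DMSO the shares were 22.7% and 20.8%. Between the drugs they were 0.714% and 0.483%, or 32 and 30 genes. With loops of up to 12 bases, the shares between the drugs were 0.765% and 0.316%, or 48 and 14 genes. The transcripts of genes with the pattern had a median GC content of 51.3%, against 47.1%. These are descriptions of 1 set of libraries, with no test.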
